A study of Mus musculus with 6 samples.

Results

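Cytokine signaling in the endothelium of the small intestine was described here through 47 genes, namely 29 receptor chains for colony-stimulating factors, interleukins and interferons, 4 Janus kinases (JAKs), 6 signal transducers and activators of transcription (STATs) and 8 suppressors of cytokine signaling (SOCS). They were chosen by gene name, taking every array probe whose RefSeq accession belongs to one of them, and make up 47 of the 22911 genes named on the array, with 77 probes. Endothelial cells without CD45 and with CD31 were sorted from the small intestine of female mice into CD90- cells, the blood vascular endothelial cells (VECs), and CD90+ cells, the lymphatic endothelial cells (LECs). RNA of 3 VEC samples (VEC 2, 3 and 4) and 3 LEC samples (LEC 6, 7 and 8) was hybridized to one-color Agilent arrays, all on 1 slide. The labels name no treatment and give neither strain nor age, nor whether samples of a population came from separate mice. The populations follow the sample titles and source names, while another label field of the LEC samples speaks of VECs. The p-values below measure only the spread between these samples, which may be technical.

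A cytokine joins receptor chains at the cell surface, the JAKs bound to these chains phosphorylate one another and the receptor, and STATs docked on the receptor are then phosphorylated and move to the nucleus as transcription factors. Among the genes that STATs switch on are those of the SOCS proteins, which bind receptors or JAKs and dampen the signal. Endothelial cells respond in this way to interleukin (IL)-4, IL-6, interferons and other cytokines, and blood and lymphatic endothelium both take part in the traffic of leukocytes through the gut wall. The receptors of the IL-1 and IL-17 families signal through adaptor proteins and kinases of their own rather than through JAKs.

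Values are given as the normalized log2 signal, that is the log2 intensity of a probe minus the 75th percentile of its array, and differences as LEC minus VEC on that scale with their standard error (SE). A series of values follows the order VEC 2, 3 and 4 or LEC 6, 7 and 8. On the slide, VEC 2, 3 and 4 and LEC 6 lay in row 1 and LEC 7 and 8 in row 2, and the row was tried as a block. The test took in a probe when the scanner software called it well above background on every array of VECs, of LECs or of both, and a gene with several tested probes is given by the brightest of them. The arrays had 30930 to 35510 probes well above background, and no spot was saturated. Of the 47 genes, 45 were tested and 42 were well above background on all 6 arrays. The receptors Il1rl1, which binds IL-33, and Il18r1, which binds IL-18, were not tested, since none of the 3 probes of Il1rl1 was well above background on any array and 1 of the 2 probes of Il18r1 was so on 1 VEC array. Because bulk RNA was measured, fewer cells that express a gene and less RNA of it per cell cannot be told apart.

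The genes were called about as often as the genes of the whole array, and of their differences over 2-fold 13 were lower and 3 higher in LECs. Of the 45 tested genes, 11 had more signal in LECs, 22 had less and 12 missed the threshold (limma, adjusted p under 0.05). Thus 73.3% of the tested genes were called, against 66.9% of all 14971 genes tested (34.9% higher and 32.0% lower) and 64.0% of all 33776 probes tested. With a difference over 2-fold, 3 of the 45 were higher and 13 were lower in LECs, against 12% and 13.1% of all genes. Over 3-fold, 11 of the 45 differed, against 15.8% of all genes. The 3 LEC and 3 VEC arrays did not overlap for 36 of the 45, against 75% of all genes. The median difference was -0.31 for the 45 genes and 0.02 for all genes, and the median size of the difference was 0.73 and 0.46.

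**Figure D1:**
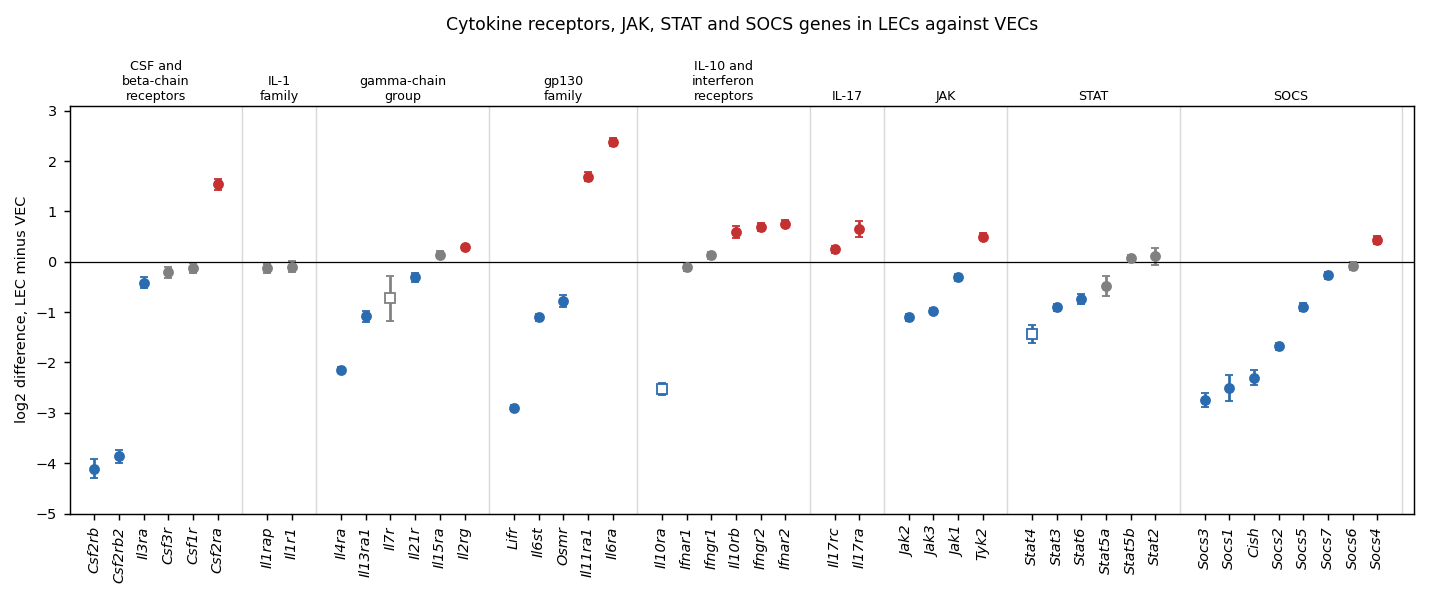
Difference (LEC minus VEC, log2 scale) of the 45 tested genes, grouped by role, with bars for the SE of the limma fit (3 arrays per population). Red points were higher in LECs, blue points lower and gray points did not pass the test, and open squares mark genes not well above background on every LEC array. The points run from Csf2rb at -4.11 to Il6ra at 2.38, and the SOCS panel lies mostly below 0.

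Among 6 receptor chains of colony-stimulating factors and IL-3, both beta chains and Il3ra were lower in LECs, Csf2ra was higher and 2 did not pass. Calls made up 66.7% of this group and 66.9% of all genes tested. Csf2rb encodes the common beta chain, through which GM-CSF, IL-3 and IL-5 signal, and Csf2rb2 is a second beta chain that mice have for IL-3. Csf2rb read 2.34, 2.37 and 2.91 on VEC 2, 3 and 4 and -1.79, -1.32 and -1.58 on LEC 6, 7 and 8. Csf2rb2 read 3.63, 3.56 and 4.01 in VECs and -0.14, -0.09 and -0.15 in LECs. All VEC arrays thus lay far above all LEC arrays for both chains, with VEC 4 the highest. Csf2rb was 17.2-fold lower in LECs (-4.11 ± 0.20, limma adjusted p = 1.33e-05) and Csf2rb2 14.5-fold lower (-3.86 ± 0.13, adjusted p = 3.39e-06). The size for Csf2rb depended on the probe, since its other 2 tested probes gave a 1.98-fold difference and one of at least 22.5-fold, all lower in LECs, and the mean of its probes gave -3.28. The genes are close relatives in sequence, and how far a probe of one reads the other was not tested.

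Csf2ra, the alpha chain that binds GM-CSF, went the other way. It read -0.69, -0.85 and -0.50 in VECs against 0.94, 0.79 and 0.84 in LECs, without overlap, and rose 2.91-fold in LECs (1.54 ± 0.11, limma adjusted p = 5.88e-05). Il3ra, the alpha chain for IL-3, was 1.34-fold lower (-0.42 ± 0.11, adjusted p = 0.0155), a call lost without VEC 2 (adjusted p = 0.0521), without VEC 3 (0.0565), with the slide row as a block (0.12) and without scaling between arrays (0.166). The receptors of M-CSF and G-CSF did not pass the test. Csf1r gave -0.12 ± 0.11 and Csf3r -0.21 ± 0.11, the latter passing without VEC 4 (-0.31, adjusted p = 0.025).

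Of 5 listed chains of the gp130 family, which transmits IL-6, IL-11, leukemia inhibitory factor (LIF) and oncostatin M, 2 were higher in LECs and 3 lower. All 5 were thus called, against 66.9% of all genes tested. Il6ra and Il11ra1 encode the chains that bind IL-6 and IL-11 and need gp130 to signal. Il6ra read 1.60, 1.53 and 1.62 on VEC 2, 3 and 4 and 3.85, 4.08 and 3.94 on LEC 6, 7 and 8. Il11ra1 read 3.53, 3.55 and 3.47 in VECs and 5.34, 5.05 and 5.23 in LECs. Every LEC array was above every VEC array for both. Il6ra rose 5.20-fold in LECs (2.38 ± 0.08, limma adjusted p = 3.52e-06), the largest rise among the 45 genes, and Il11ra1 was 3.22-fold higher (1.69 ± 0.09, adjusted p = 2.05e-05), a value to be read with care because mice carry near-identical copies of that gene.

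The 3 other listed chains, gp130 and its partners Lifr and Osmr, were lower in LECs. Lifr, which pairs with gp130 to receive LIF, read 4.61, 4.58 and 4.72 in VECs and 1.71, 1.72 and 1.76 in LECs, a 7.50-fold difference (-2.91 ± 0.07, limma adjusted p = 8.97e-07). No LEC array came near a VEC array for this gene. Il6st, which encodes gp130 itself, read 4.80, 4.79 and 4.88 in VECs and 3.79, 3.64 and 3.73 in LECs, and was 2.15-fold lower (-1.10 ± 0.07, adjusted p = 4.16e-05). Osmr, the partner of gp130 for oncostatin M, was 1.72-fold lower (-0.78 ± 0.12, adjusted p = 0.00197). The other 2 probes of Lifr gave 19.3-fold and 9.03-fold differences in the same direction.

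Of the 6 chains of the gamma-chain receptors and their partners, 3 were lower in LECs, 1 was higher and 2 did not pass. Calls made up 66.7% of them, against 66.9% of all genes tested. Il4ra, which binds IL-4 and forms a receptor for IL-4 and IL-13 together with Il13ra1, read 4.11, 4.12 and 4.10 on VEC 2, 3 and 4 and 1.96, 1.93 and 2.01 on LEC 6, 7 and 8. The arrays of each population lay close together, and the gene was 4.42-fold lower in LECs (-2.14 ± 0.06, limma adjusted p = 1.58e-06). Il13ra1 was 2.12-fold lower (-1.09 ± 0.11, adjusted p = 3.19e-04). Il2rg, the gamma chain shared by the receptors of IL-2, IL-4, IL-7, IL-15 and IL-21, was 1.22-fold higher (0.28 ± 0.06, adjusted p = 0.00554). Il21r was 1.24-fold lower (-0.31 ± 0.08, adjusted p = 0.0166), and its call was lost without VEC 3 (0.0516), without LEC 8 (0.0589), with the slide row as a block (0.0661), with no filter on dim probes (0.0572) and without scaling between arrays (0.548).

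Il15ra, which presents IL-15 to neighboring cells, gave 0.14 ± 0.07 and did not pass the test with its brightest probe. Another of its probes was 1.47-fold brighter in LECs (limma adjusted p = 0.00213). The gene passed with the mean of its probes (0.37, adjusted p = 0.0175) and without scaling between arrays (0.37, adjusted p = 0.0187). Il7r, the receptor chain for IL-7, was dim in both populations. It read -4.05, -3.83 and -2.55 in VECs and -4.76, -3.88 and -3.96 in LECs, of which 2 were well above background. The populations overlapped, and the difference of -0.73 ± 0.45 did not pass the test (adjusted p = 0.203).

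**Figure D2:**
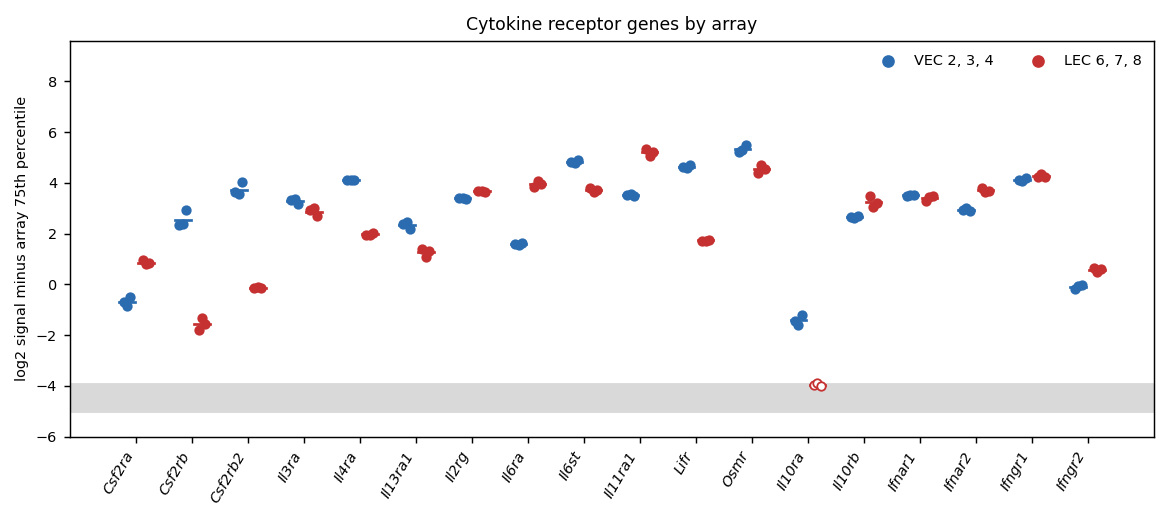
Normalized log2 signal of 18 receptor genes on each array, blue for VEC 2, 3 and 4 and red for LEC 6, 7 and 8 (3 arrays per population), with a line at each mean. Open points mark a population that was not well above background on all its arrays, and the gray band spans the lowest log2 signals well above background, from -5.03 to -3.92. None of the 18 overlapped between the populations, as was true of 75% of all genes. The gaps are widest for Csf2rb, Csf2rb2, Il4ra, Lifr and Il10ra, higher in VECs, and Csf2ra, Il6ra and Il11ra1, higher in LECs.

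Of the 6 chains of IL-10 and interferon receptors, 3 were higher in LECs, 1 was lower and 2 did not pass. Here too 66.7% were called, against 66.9% of all genes tested. Il10ra, the chain that binds IL-10, read -1.46, -1.61 and -1.21 on VEC 2, 3 and 4 and -3.97, -3.89 and -3.99 on LEC 6, 7 and 8. It was well above background on 2 of the 3 LEC arrays, and in the main processing was at least 5.77-fold lower in LECs (limma adjusted p = 1.01e-05). With normexp background correction the difference was -1.45 in place of -2.53. Il10rb, which completes the receptors of IL-10, IL-22 and type III interferon, was 1.5-fold higher (0.59 ± 0.12, adjusted p = 0.00588).

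Of the type I interferon receptor, Ifnar2 rose 1.69-fold in LECs (0.76 ± 0.07, limma adjusted p = 2.34e-04), while Ifnar1 gave -0.11 ± 0.08 with its brightest probe (adjusted p = 0.259). Another probe of Ifnar1 was 1.45-fold higher in LECs (adjusted p = 0.00318), and the mean of its 3 probes was 0.25 (adjusted p = 0.0366). Of the interferon gamma receptor, Ifngr2 was 1.61-fold higher (0.68 ± 0.08, adjusted p = 4.97e-04), and Ifngr1, the ligand-binding chain, gave 0.13 ± 0.07 (adjusted p = 0.134). Ifngr1 passed with quantile normalization (0.21, adjusted p = 0.0365) and without scaling between arrays (0.35, adjusted p = 0.0291).

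The IL-17 receptor chains Il17ra and Il17rc were 1.57-fold (0.65 ± 0.15, limma adjusted p = 0.0106) and 1.19-fold (0.25 ± 0.07, adjusted p = 0.0196) higher in LECs. The call for Il17rc was lost without VEC 2 (0.076), without LEC 7 (0.0571), with no filter on dim probes (0.0724) and in a fit blocked by slide row (0.136). Neither tested member of the IL-1 receptor family passed. The signaling receptor Il1r1 gave -0.10 ± 0.11 and its accessory chain Il1rap -0.13 ± 0.08.

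Of the 4 JAKs, 3 were lower in LECs and 1 was higher (100% called, against 66.9% of all genes tested). Jak1, used by the gp130, gamma-chain and interferon receptors, read 4.27, 4.21 and 4.14 on VEC 2, 3 and 4 and 3.91, 3.93 and 3.86 on LEC 6, 7 and 8. Jak2, which serves the beta-chain receptors, read 1.48, 1.58 and 1.40 in VECs and 0.42, 0.31 and 0.42 in LECs. Jak3, the kinase of the gamma chain, read 2.12, 2.13 and 2.11 in VECs and 1.12, 1.14 and 1.17 in LECs. No JAK overlapped between the populations, as was true of 75% of all genes. Jak2 was 2.15-fold lower (-1.10 ± 0.08, limma adjusted p = 5.97e-05) and Jak3 1.97-fold lower (-0.98 ± 0.06, adjusted p = 2.75e-05). Jak1 was 1.24-fold lower (-0.31 ± 0.06, adjusted p = 0.00705), but not past the threshold with the slide row as a block (0.0538) or without scaling between arrays (0.559). Tyk2, which serves interferon and IL-10 family receptors, read -0.20, -0.19 and -0.14 in VECs and 0.26, 0.31 and 0.41 in LECs, and was 1.42-fold higher (0.50 ± 0.07, adjusted p = 9.54e-04).

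Of the 6 STATs, 3 were lower in LECs, 0 were higher and 3 did not pass with their brightest probe. Calls made up 50% of them, against 66.9% of all genes tested. Stat3, the main STAT of the gp130 and IL-10 receptors, read 5.0, 5.07 and 5.10 on VEC 2, 3 and 4 and 4.09, 4.21 and 4.15 on LEC 6, 7 and 8. Stat6, which acts downstream of IL-4 and IL-13, read 1.93, 1.86 and 2.15 in VECs and 1.13, 1.33 and 1.24 in LECs. The populations were apart for both. Stat3 was 1.88-fold lower (-0.91 ± 0.07, limma adjusted p = 7.42e-05) and Stat6 1.68-fold lower (-0.75 ± 0.10, adjusted p = 0.00105). Stat4, the STAT of IL-12, was near the background, at -3.81, -3.65 and -3.76 in VECs and -5.50, -5.20 and -4.80 in LECs. No LEC array had it well above background, and in the main processing it was at least 1.68-fold lower there (adjusted p = 7.79e-04). Normexp background correction gave a difference of -0.48, smaller than that bound.

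Stat2, which acts in type I interferon signaling, gave 0.11 ± 0.17 and changed sign without LEC 7 (-0.07) and in the fit blocked by slide row (-0.22). Stat5b, which acts with growth hormone and beta-chain cytokines, gave 0.07 ± 0.07. Its neighbor and near relative Stat5a gave -0.48 ± 0.20 with its brightest probe (limma adjusted p = 0.0831) and passed without VEC 4 (-0.64, adjusted p = 0.0329), and a second probe of it was 1.23-fold higher in LECs (adjusted p = 0.0367). No single direction is thus given for Stat5a.

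The SOCS genes were the role group with the lowest median difference, -1.29 over 8 genes against 0.02 for all genes. Of these, 6 were lower in LECs, 1 was higher and 1 did not pass (87.5% called, against 66.9% of all genes tested). The 4 best known as cytokine-induced, Socs1, Socs2, Socs3 and Cish, fell by more than 3-fold each, and the group also holds members known mainly from growth factor signaling. Socs3 blocks JAKs at gp130 and other receptors, Socs1 blocks JAKs downstream of interferons, and Cish and Socs2 are induced through STAT5.

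Socs3 read 8.34, 8.35 and 8.10 on VEC 2, 3 and 4 and 5.73, 5.29 and 5.54 on LEC 6, 7 and 8. Socs1 read 2.61, 2.60 and 2.15 in VECs and -0.57, 0.30 and 0.09 in LECs. The populations were far apart for both, and LEC 6 was the lowest array for Socs1. Socs3 was 6.70-fold lower in LECs (-2.74 ± 0.13, limma adjusted p = 1.44e-05) and Socs1 5.69-fold lower (-2.51 ± 0.25, adjusted p = 3.13e-04). Cish read 4.88, 4.96 and 4.48 in VECs and 2.60, 2.36 and 2.45 in LECs. Socs2 read 3.67, 3.59 and 3.60 in VECs and 1.87, 1.99 and 1.97 in LECs. VEC 4 was the lowest VEC array for Cish, Socs1 and Socs3, still well above every LEC array. Cish was 4.93-fold lower (-2.30 ± 0.14, adjusted p = 4.11e-05) and Socs2 3.21-fold lower (-1.68 ± 0.07, adjusted p = 6.24e-06).

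The remaining SOCS genes moved less. Socs5 read 3.28, 3.23 and 3.09 in VECs and 2.29, 2.26 and 2.36 in LECs and was 1.86-fold lower (-0.90 ± 0.07, limma adjusted p = 1.36e-04). Socs4 read -0.78, -0.72 and -0.81 in VECs and -0.40, -0.18 and -0.43 in LECs and was 1.35-fold higher (0.43 ± 0.09, adjusted p = 0.00542, or 0.0594 with the slide row as a block). Socs7 read 2.47, 2.54 and 2.37 in VECs and 2.11, 2.21 and 2.24 in LECs. None of the 3 overlapped between the populations, as was true of 75% of all genes. The 1.21-fold lower level of Socs7 (-0.27 ± 0.08, adjusted p = 0.0201) did not pass without VEC 2 (0.0646), VEC 3 (0.0749) or LEC 6 (0.0572), with no filter on dim probes (0.0699) or without scaling between arrays (0.747). Socs6 gave -0.08 ± 0.08 with its brightest probe and was 1.17-fold lower with the other (adjusted p = 0.0485).

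Early response and heat shock genes, which are known to rise while tissue is digested and sorted, were also mostly lower in LECs. Their part in the SOCS results was not tested. Of 15 such genes, a list chosen after their values were seen, 13 were lower in LECs and 1 was higher, with a median of -1.65. Calls made up 93.3% of this list, against 66.9% of all genes tested (34.9% higher and 32.0% lower). The summed signal was 396100 to 520600 on the LEC arrays and 812800 to 941900 on the VEC arrays. Ier3 was 10.1-fold (limma adjusted p = 2.16e-05), Ier2 6.82-fold and Atf3 5.01-fold lower. Of the heat shock genes, Hspa1b was 1.49-fold higher (adjusted p = 0.0243), Hspa8 was 1.59-fold lower and Hspa1a did not pass (adjusted p = 0.183). Without LEC 6 or LEC 8 none of the 15 was called higher.

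**Figure D3:**
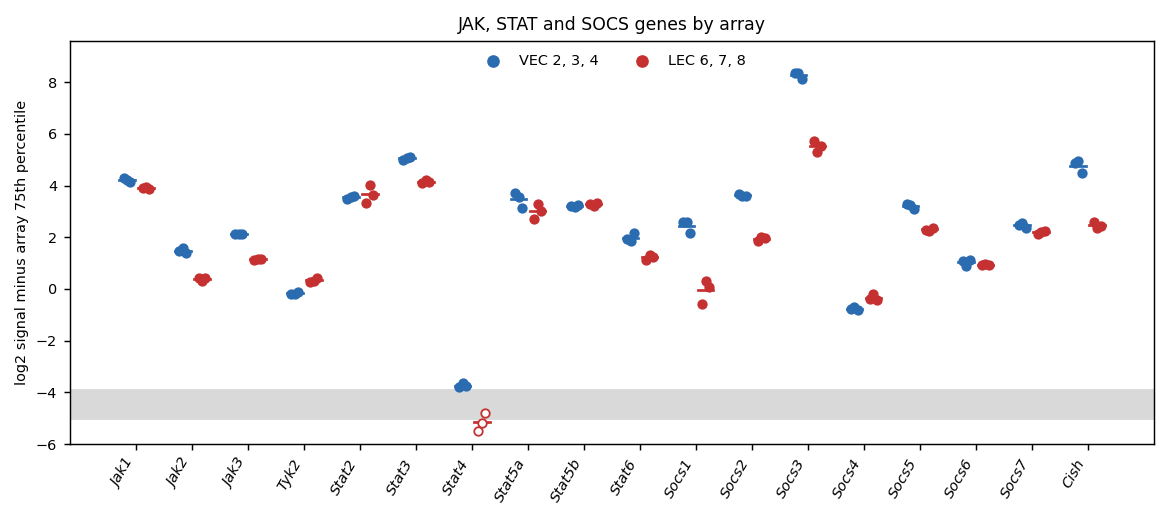
Normalized log2 signal of the JAK, STAT and SOCS genes on each array, blue for VEC 2, 3 and 4 and red for LEC 6, 7 and 8 (3 arrays per population), with a line at each mean. Open points mark a population not well above background on all its arrays, and the gray band spans the lowest log2 signals well above background. The gaps are widest for Socs3, Socs1, Cish and Socs2, and the LEC points of Stat4 lie in or below the band while its VEC points lie just above it.

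Several STATs bind DNA at the palindrome TTCNNNGAA, so the promoters of the 47 genes were searched for these letters. Other forms of STAT site were not searched. The promoters are those of RefSeq on GRCm38.p6, 250 bases before to 50 bases after each annotated start, and 38 of the 47 genes had one. Since the motif is its own reverse complement, 1 search covers both strands. It was found for 7 of the 38 genes (18.4%), namely Cish, Socs3, Csf2rb2, Ifnar1, Ifnar2, Il18r1 and Il7r, and for 9.55% of all 27025 genes with a promoter window. Of the genes with a promoter, the motif was held by 3 of the 17 that were lower in LECs (Cish, Socs3 and Csf2rb2), 1 of the 9 that were higher (Ifnar2) and 2 of the 10 that did not pass the test, shares of 17.6%, 11.1% and 20%. Below are the promoters of Cish, Socs3 and Csf2rb2, which were lower in LECs by over 3-fold and hold the motif, and of Socs1, which was also lower by over 3-fold and has no match in its window, as is true of Il4ra and Lifr. The printed stretch is the 250 bases before the start, and for Cish it runs on to the end of its second motif. Each reads 5′ to 3′ on the strand of the gene, with the motif in capitals.

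Cish, chr9:107296409-107296678, plus strand: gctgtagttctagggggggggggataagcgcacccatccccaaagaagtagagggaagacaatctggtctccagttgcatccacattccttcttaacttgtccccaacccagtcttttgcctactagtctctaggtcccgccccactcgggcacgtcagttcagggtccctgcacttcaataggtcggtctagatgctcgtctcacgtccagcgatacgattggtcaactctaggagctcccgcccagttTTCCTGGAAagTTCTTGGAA

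Socs3, chr11:117969367-117969616, minus strand: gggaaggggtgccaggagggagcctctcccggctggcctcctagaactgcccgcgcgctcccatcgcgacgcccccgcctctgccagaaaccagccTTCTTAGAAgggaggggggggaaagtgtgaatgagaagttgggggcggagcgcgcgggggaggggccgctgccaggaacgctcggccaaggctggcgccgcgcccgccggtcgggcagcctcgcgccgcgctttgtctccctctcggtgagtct

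Csf2rb2, chr15:78305722-78305971, minus strand: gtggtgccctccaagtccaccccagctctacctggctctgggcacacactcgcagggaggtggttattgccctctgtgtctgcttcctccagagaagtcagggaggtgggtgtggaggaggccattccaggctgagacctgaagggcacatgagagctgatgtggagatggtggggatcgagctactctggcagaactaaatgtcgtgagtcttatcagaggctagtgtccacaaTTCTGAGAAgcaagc

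Socs1, chr16:10785537-10785786, minus strand: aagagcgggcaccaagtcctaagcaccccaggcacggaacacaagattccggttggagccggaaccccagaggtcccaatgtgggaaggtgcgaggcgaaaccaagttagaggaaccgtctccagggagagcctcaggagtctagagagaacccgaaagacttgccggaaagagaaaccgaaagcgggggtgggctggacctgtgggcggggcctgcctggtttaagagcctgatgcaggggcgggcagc

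The 2 motifs of Cish do not overlap, and the first begins at the annotated start itself and the second 11 bases after it. In Socs3 the motif begins 154 bases and in Csf2rb2 15 bases before the start. These matches describe the letters of the windows and say nothing of binding in these cells.

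Several of these genes lie side by side in the genome. In the gene order of GRCm38.p6, Csf2rb2 and Csf2rb are neighbors on chromosome 15, and so are Osmr and Lifr, with both pairs lower in LECs. Il4ra (4.42-fold) and Il21r (1.24-fold), neighbors on chromosome 7, were lower as well, though the call of Il21r did not hold under every setting. On chromosome 16, Ifnar2, Il10rb, Ifnar1 and Ifngr2 follow one another, and all but Ifnar1 with its brightest probe were higher in LECs. Stat5b, Stat5a and Stat3 are consecutive on chromosome 11, and of these only Stat3 was called with its brightest probe. How often neighbors share a direction among all genes was not counted.

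Where a gene had more than 1 tested probe, the probes mostly gave the same direction. Of 21 such genes, 18 had all probes in 1 direction and 3 (Csf1r, Ifnar1 and Stat5a) had probes on both sides of 0. None had calls in both directions. The other 24 tested genes rest on 1 probe, Socs1, Socs3 and Cish among them.

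**Figure D4:**
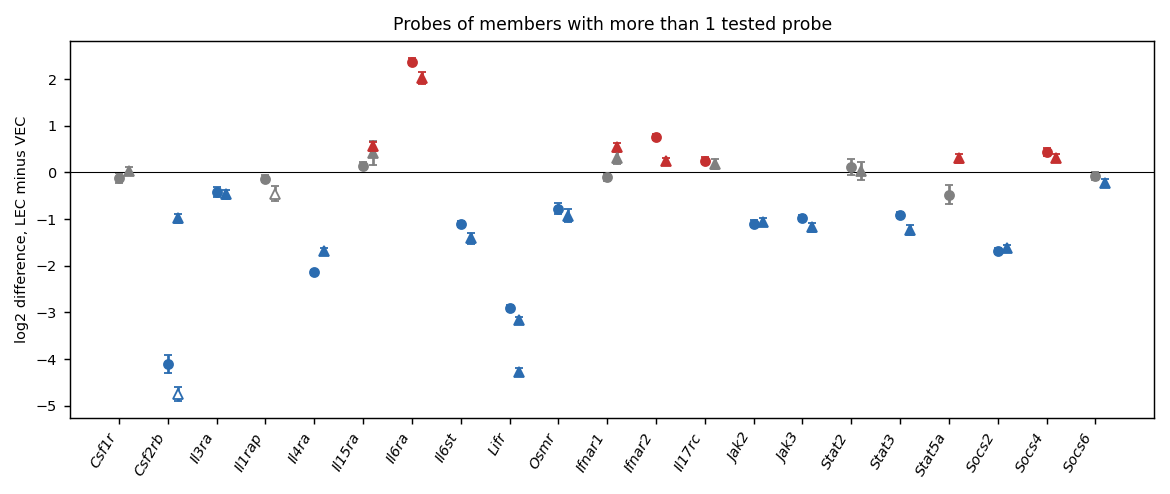
Difference (LEC minus VEC, log2 scale) of every tested probe of the 21 genes with more than 1 tested probe, with bars for the SE (3 arrays per population). Circles are the brightest probe and triangles the others, red for higher in LECs, blue for lower, gray for not passed and open for probes that only a bound describes. The probes of Csf2rb are spread from -4.76 to -0.99, while those of Jak2, Jak3 and Socs2 lie close together.

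The ligands of these receptors were called about as often as all genes. Of 31 listed ligand genes, 17 were tested, of which 5 were higher in LECs and 8 were lower (median -0.27). Thus 76.5% were called, against 66.9% of all genes tested. Il7 (at least 97.3-fold, limma adjusted p = 6.77e-07) and Il33 (67.0-fold, adjusted p = 5.57e-07) were higher in LECs, whereas their receptor chains Il7r and Il1rl1 were dim or not above background in both populations. Csf3, which encodes G-CSF, was 23.0-fold lower in LECs (adjusted p = 4.37e-05) and Il6 13.2-fold lower (adjusted p = 9.42e-06). Il6 read 4.59, 4.58 and 4.38 in VECs and 1.14, 0.68 and 0.56 in LECs, so that this ligand was higher in VECs and its binding chain Il6ra in LECs. Without LEC 7, 8 ligands were higher.

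Of 32 other receptor genes, 20 were tested, with 5 higher in LECs and 9 lower (median -0.25). The share called was 70%, near the 66.9% of all genes tested. Il12rb1 of the IL-12 and IL-23 receptors (at least 4.18-fold, limma adjusted p = 0.00288) and the erythropoietin receptor Epor (4.71-fold, adjusted p = 6.72e-05) were higher. Ifnlr1, the chain that binds type III interferon, was at least 10.2-fold lower (adjusted p = 1.06e-05) and Il20rb 4.87-fold lower (adjusted p = 1.42e-05). Without VEC 2, 3 of these receptors were higher.

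Other regulators of the pathway were divided. Of 13 tested phosphatases, PIAS proteins, SH2B adaptors and other regulators, 2 rose in LECs, 6 fell and 5 missed the threshold (median -0.12). Only 3 were lower without VEC 2. The share called was 61.5%, against 66.9% of all genes tested. Sh2b2, an adaptor that binds JAK2 and the insulin receptor, was 54.6-fold lower (limma adjusted p = 7.98e-07), and the JAK and STAT phosphatase Ptpn2 was 1.95-fold lower (adjusted p = 3.75e-04). Usp18, which inhibits the type I interferon receptor at IFNAR2, was 1.98-fold higher (adjusted p = 9.09e-04) and the SUMO ligase Pias2 1.55-fold higher (adjusted p = 4.32e-04).

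Of 15 tested adaptors, 3 were higher and 6 lower (median -0.13), with 3 lower without VEC 3 or without LEC 8. Thus 60% were called, against 66.9% of all genes tested. The docking proteins Gab2 (3.50-fold, limma adjusted p = 6.57e-06) and Shc1 (2.64-fold, adjusted p = 1.23e-05) were higher in LECs. Myd88, the adaptor of IL-1 and Toll-like receptors, was 3.45-fold lower (adjusted p = 1.78e-05) and Irs1 2.43-fold lower (adjusted p = 0.00164). Of the 5 subunits of the ubiquitin ligase that SOCS proteins recruit, 4 were higher in LECs and 1 lower (100% called, against 66.9% of all genes tested). The higher ones, by up to 1.38-fold (Rnf7, adjusted p = 0.00326), included the scaffold Cul5 (1.34-fold, adjusted p = 0.00202). Eloc was 1.54-fold lower (adjusted p = 0.00169).

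Genes known as targets of STATs were mostly lower in LECs. Of 12 tested, 8 were lower, 2 were higher and 2 did not pass, with a median of -1.11. The share called was 83.3%, against 66.9% of all genes tested (34.9% higher and 32.0% lower). Irf1, a transcription factor of the interferon response, read 8.07, 8.05 and 7.75 in VECs and 5.91, 6.14 and 6.01 in LECs and was 3.82-fold lower (limma adjusted p = 3.05e-05). Icam1, an adhesion molecule for leukocytes, was 3.67-fold lower (adjusted p = 1.4e-05). Myc (1.80-fold, adjusted p = 4.38e-04) and Bcl6 (1.79-fold, adjusted p = 0.00151) were higher. Many of these targets also answer to other pathways.

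**Figure D5:**
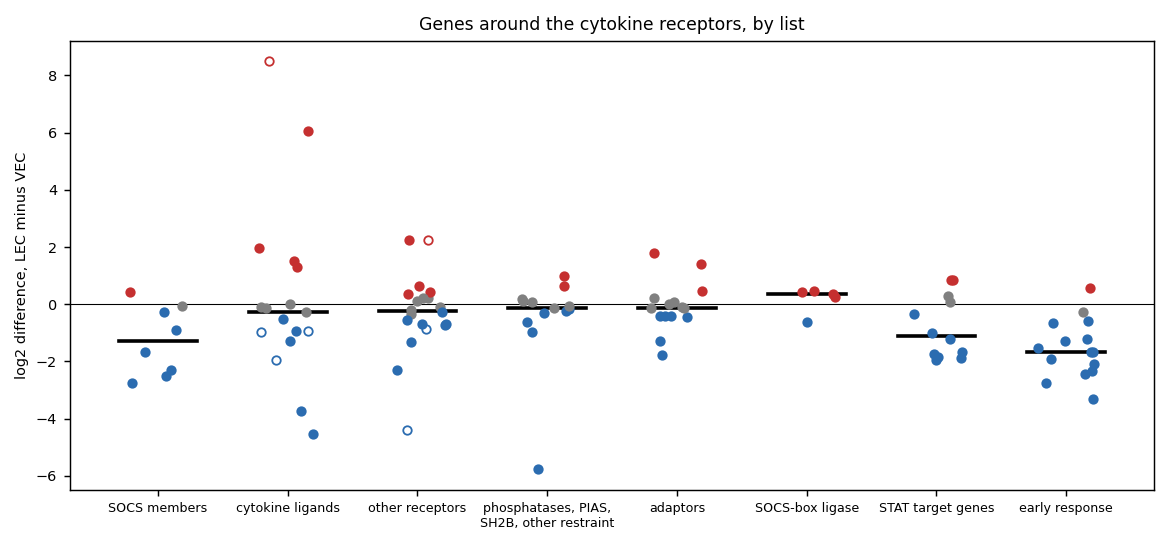
Difference (LEC minus VEC, log2 scale) of each tested gene by list, with a black line at the median of the list. Red points were higher in LECs, blue points lower and gray points did not pass the test, and open points are genes that only a bound describes. Of the 8 lists drawn, the medians are lowest for the early response list, which holds heat shock genes too (-1.65), the SOCS genes (-1.29) and the STAT targets (-1.11).

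The populations carried the markers of their labels. All 7 listed lymphatic genes were higher in LECs and all 7 blood endothelial genes were lower. Transcripts of other cells differed too, and their part in the results above was not tested. Beside all these marker counts, 34.9% of all genes tested were higher in LECs and 32.0% lower.

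Genes of macrophages and related cells, which express many cytokine receptors, went in both directions. Of 13 such genes 9 rose in LECs. The 3 that fell were Cd68 (2.23-fold), Cd14 (1.94-fold) and Itgam (1.16-fold). Summed signals were 27600 to 33150 on the LEC arrays and 27600 to 31060 on the VEC arrays, and the bright Itgam probe made up most of them. With the slide row as a block 5 were higher, and likewise 5 with only probes well above background on all 6 arrays. Cd163, Ccr2 and Spi1 were not well above background on any array. Among 5 pan-leukocyte genes with a test, 3 rose in LECs (Coro1a, Laptm5 and Cd52) and 1, the actin-bundling Lcp1, was 17.8-fold lower. Their list had summed signals of 442.8 to 479.6 on the LEC arrays and 1170 to 1296 on the VEC arrays. Lcp1 made up most of the VEC sums, which therefore do not describe the other genes of the list. Ptprc, which encodes the CD45 of the sort, was called well above background on 2 VEC and 2 LEC arrays, and Cd53 on none. Of 9 tested T and NK cell genes, 4 were higher and 4 lower, with Cd3g, Cd8a and Nkg7 not well above background on any array. Fibroblast genes (3 of 4) were higher in LECs, and red blood cell genes (3 of 3) were lower. Of the tested B cell genes 3 of 4, of the mast cell genes 1 of 3, of the neutrophil genes 1 of 2 and of the mural genes 3 of 9 were lower, and none of these was higher. Of 5 tested epithelial genes 1 was higher and 2 were lower, and of 7 pan-endothelial genes 1 was higher and 5 were lower. Some of these counts moved with single arrays. The T and NK cell genes called lower were 1 without VEC 2 or LEC 8 and 2 without VEC 3 or LEC 6. No neutrophil gene was called lower without VEC 2, VEC 3, LEC 6, LEC 7 or LEC 8. The mural genes called lower were 1 without VEC 2 or LEC 8 and 5 without LEC 7, and the epithelial genes called higher were 3 without VEC 4.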

How the data were processed

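Total RNA of sorted VECs and LECs (3 samples each) was labeled with Cy3 and hybridized to the SurePrint G3 Mouse GE 8x60K array. Each deposited file holds spot intensity values as Agilent Feature Extraction 12.0.3.1 gave them, with its background subtraction and without scaling across arrays. The authors also deposited a log2 table, which for 100% of the probes was the log2 intensity minus 1 constant per array (within 0.01), and served as an alternative. For their own analysis the authors used Gene Spring GX and ANOVA, with settings not given in the sources used here.

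From the intensities, log2 values were taken, outlier spots (none among the probes of the 47 genes) were set missing, replicate spots were averaged and each array was scaled by subtracting its 75th percentile. Tested were the 33776 of 56605 probes that the scanner software called well above background on every array of VECs, of LECs or of both. The test was two-sided, by lmFit and eBayes (no trend) of limma 3.58.1 in R 4.3.3, with Benjamini-Hochberg adjustment over these probes and a threshold of 0.05, and was checked on simulated data. Where the dimmer population was not well above background on all its arrays, a fold is a lower bound, with dim values raised to the lowest signal well above background on their array (12.09 to 25.14 intensity units). Such a bound holds for this processing only, and normexp background correction gave smaller differences for Il10ra and Stat4. The number of arrays limits the precision. Probes were named through RefSeq accessions of GRCm38.p6, which left 23611 unnamed.

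The genes, pathway lists and marker lists were chosen with earlier results of these data known. Every one of the 47 genes is named, with values by array for called genes with at least a 3-fold difference, for those with only a bound and for every called JAK, STAT and SOCS gene. From each other pathway list, up to 2 genes per direction with the largest difference are named. Il27ra was added after its value was seen. Other values by array (Csf2ra, Il6st, Il6, Irf1) and the genes named from the marker and early response lists were chosen after their values were seen. Alternatives covered background correction, scaling, filters, the variance model, the test, the input table, probe averaging, a floor, the slide row and each array left out. All arrays shared 1 slide and 1 scan date, with VEC 2, 3 and 4 and LEC 6 in row 1 and LEC 7 and 8 in row 2. A planned comparison of protein sequences was not run.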

Additional observations from a re-analysis of the deposited data

How the results depend on the processing

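No paired analysis was run. The populations share no replicate number, and the labels do not say whether a VEC and a LEC sample belong together. Under 13 other settings and 6 fits that left out 1 array each, the number of the 45 genes higher in LECs ranged from 9 to 13 and the number lower from 18 to 24. With 1 array left out these ranges were 10 to 11 and 19 to 24. Of the 33 called genes, 27 were called under every setting that gave them a value, and Il3ra, Il21r, Il17rc, Jak1, Socs4 and Socs7 were not, with their values given above. Of 852 values compared, 815 stayed on the same side of the threshold with the same sign and 9 changed sign. Without scaling between arrays, the median difference of all genes moved from 0.02 to 0.24, the share of calls that were higher rose from 52.2% to 67.4%, and Csf1r (0.10), Csf3r (0.019), Il1r1 (0.13), Il1rap (0.094), Ifnar1 (0.12) and Socs6 (0.15) changed sign, relative to that shift. Ifnar1 also changed sign with the mean of its probes (0.25), and Stat2 with the slide row as a block (-0.22) and without LEC 7 (-0.066), with a range of -0.066 to 0.28 over the fits that left out 1 array. Normexp used the median signals, since mean signals were not among the columns used here. The signal over background limits Il7r, Il10ra and Stat4, for which the LEC level is partly or wholly a bound, and Il1rl1 and Il18r1, which could not be compared.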
